A study of Mus musculus with 28 samples.

Results

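The proteasome genes of mouse skeletal muscle were taken as every gene whose symbol began with *Psma*, *Psmb*, *Psmc*, *Psmd*, *Psme*, *Psmf* or *Psmg* followed by a number. The pattern matched 46 of the 12732 genes in the table, and all 46 passed the filter on low values (a mean signal of at least 0.5). Of these, 45 encode subunits, activators, an inhibitor or assembly factors of the proteasome. The remaining match, *Psmc3ip*, encodes a meiotic recombination protein and was left out of all counts; its level was 1.57 (median of 14 wt libraries, 0 to 2.28) against 2.17 (1.40 to 2.77) in *mfn1,2*, which did not pass the test (limma adjusted *P* = 0.0145). *Psmb9*, the third immune catalytic subunit, and the tissue-restricted subunits *Psma8* and *Psmb11* were not analysed here.

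RNA was sequenced from tibialis anterior (TA) muscle, which is built almost wholly of fast-twitch fibres, from 14 wt and 14 *mfn1,2* mice. The *mfn1,2* mice carried Myl1-Cre with 1 null and 1 floxed copy of both mitofusin genes (Mfn1-/flox; Mfn2-/flox), and the wt littermates carried 1 intact and 1 floxed copy of both (Mfn1+/flox; Mfn2+/flox), so neither group was free of floxed alleles. Myl1-Cre deletes in fast-twitch fibres, and other cells of the muscle keep the floxed copies. Both groups came from a cross that also carried a floxed mDendra reporter. No Cre is listed for wt, so effects of Cre, also on the reporter, cannot be told apart from loss of the mitofusins. For each genotype the labels gave 4 mice at 4, 6 and 8 weeks and 2 mice at 10 weeks, but the value columns named only genotype and a running number, so ages were pooled. *Mfn1* fell from a mean signal of 53.0 ± 12.5 to 12.9 ± 3.17 (SD, n = 14 each) without overlap, and *Mfn2* from 48.0 ± 4.64 to 30.6 ± 5.03, with overlap.

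The proteasome is a protease that unfolds and degrades proteins tagged with ubiquitin. Its barrel-shaped 20S core stacks rings of α subunits, which gate the entrance, around rings of β subunits, some of which carry the active sites. The 19S cap recognizes ubiquitin, removes it and threads the substrate into the core with a ring of ATPases. In cells of the immune system, and elsewhere under interferon, the active β subunits are replaced by immune counterparts to form the immunoproteasome, which makes peptides for display on MHC class I. In muscle the proteasome degrades contractile and damaged proteins, and its transcripts are known to rise in several kinds of wasting.

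Levels are the deposited normalized signal, rescaled so that the typical gene has the same level in each library (median-of-ratios scaling). Changes are log2(fold change) of *mfn1,2* against wt on log2(signal + 0.1), with their SE, and a gene is said to rise or fall at an adjusted *P* under 0.01 (limma, Benjamini-Hochberg over 10819 genes). Most proteasome genes were higher in *mfn1,2* muscle. Of the 45 genes, 28 (62.2%) rose and 4 fell, against 28.2% and 24.9% of all genes tested. The median log2(fold change) was 0.44 over the 45 genes and 0.03 over all genes. The genotypes did not overlap, with *mfn1,2* higher, in 4 of the 45 and in 6.15% of all genes; these 4 were *Psma2*, *Psma5*, *Psmb3* and *Psmc2*, picked out after their values were seen. The median was 0.46 over the 14 constitutive 20S subunits and 0.45 over the 17 subunits of the 19S cap with a *Psmc* or *Psmd* symbol.

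**Figure D1:**
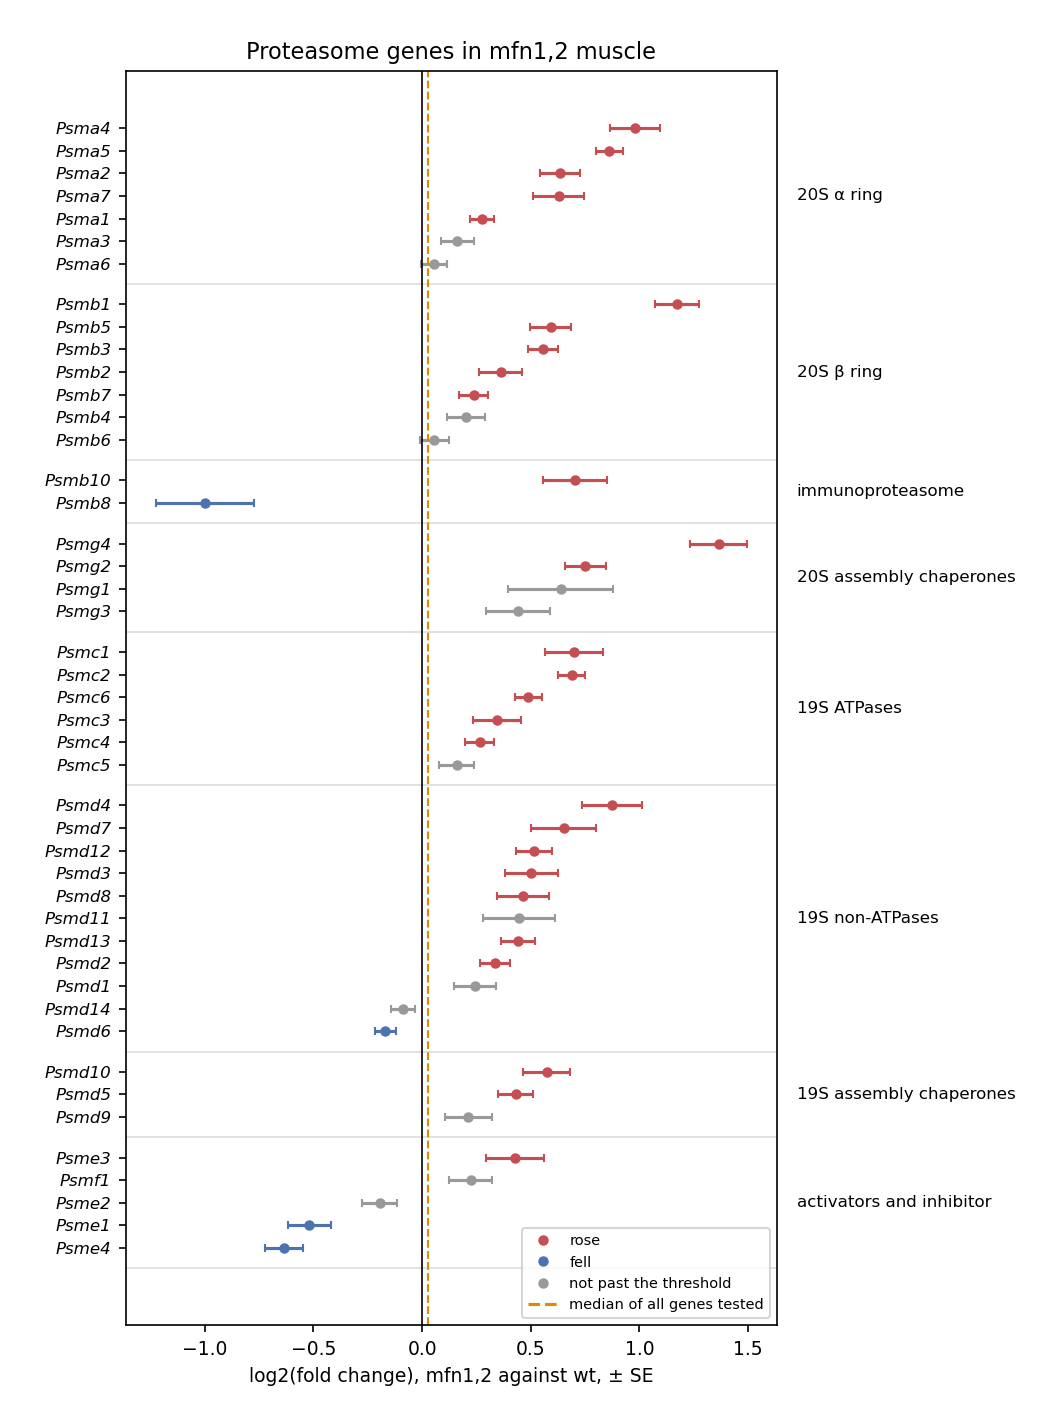
Change of each of the 45 proteasome genes, as log2(fold change) of *mfn1,2* against wt with its SE (14 libraries per genotype), ordered within 8 functional groups; the dashed line is the median of all genes tested. The 20S and 19S subunits sit mostly to the right of the dashed line, up to 1.17 for *Psmb1*, whereas *Psmb8*, *Psme1* and *Psme4* lie at -1.0, -0.52 and -0.64.

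How far the proteasome rose depended on how libraries were made comparable. Mitochondrially encoded RNA made up 49.4 to 71.3% of the signal in wt and 24.9 to 35.5% in *mfn1,2*. The median of all genes was 0.64 in the values as deposited, 1.04 with libraries scaled to the same total, 0.83 with scaling to *Actb*, 0.16 with scaling to the total of nuclear genes and -0.04 with scaling to the upper quartile. Relative to that median, the 20S subunits stood 0.43 to 0.46 higher and the 19S subunits 0.42 to 0.46 higher under the main and these 5 other scalings. Each scaling divides a library by a single factor and so moves all genes nearly alike. This gap could therefore hardly change, and its steadiness is not a check on the result. *Actb* itself fell from 83.5 ± 42.6 to 43.7 ± 9.62. All changes below are therefore changes relative to the typical gene. In bulk muscle, fewer cells of a type and less RNA per cell cannot be told apart.

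**Figure D2:**
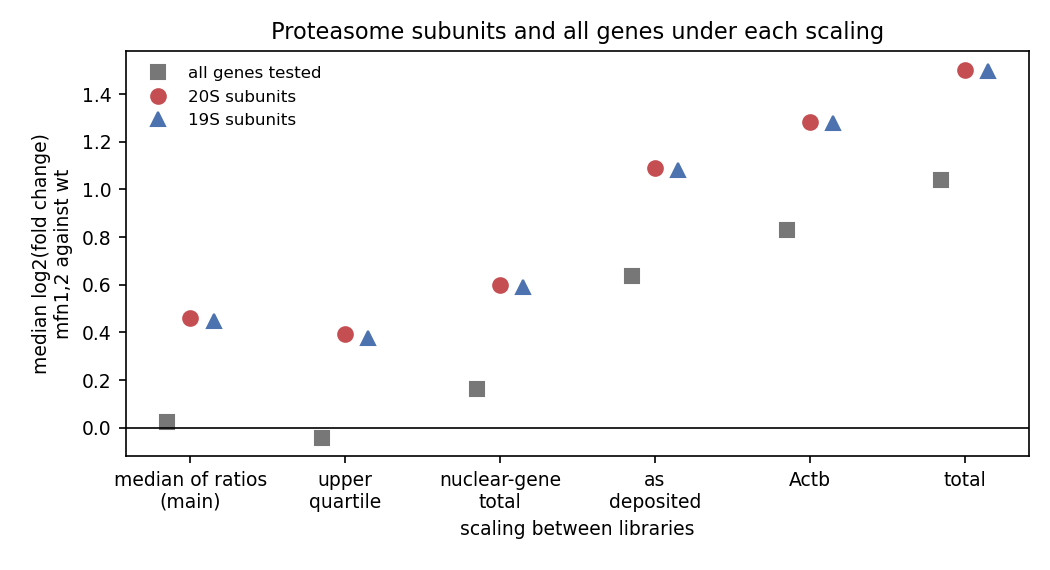
Median log2(fold change) of *mfn1,2* against wt (y axis) for all genes tested, the 14 constitutive 20S subunits and the 17 subunits of the 19S cap, under 6 ways of scaling the libraries (x axis). All 3 medians move together, from -0.04 for all genes at the upper quartile to 1.04 at equal totals. Both sets of subunits stay above all genes throughout, a gap that could hardly change because each scaling moves all genes nearly alike.

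Hierarchical clustering, cut into a fixed 4 clusters, placed 4 wt libraries (6, 8, 9 and 13) and 1 *mfn1,2* library (8) outside the largest cluster of their genotype. With the number of clusters fixed, some libraries had to stand apart. Without these 5 libraries, 31 of the 45 genes rose and 3 fell, while 26.5% of all genes rose and 2566 of 10707 fell. The medians were smaller: the median log2(fold change) was 0.42 over the 20S and 0.38 over the 19S subunits, in place of 0.46 and 0.45. The change of *Psma4* went from 0.98 to 0.84 and that of *Psma2* from 0.63 to 0.47. Single members also went the other way, such as *Psma5*, from 0.86 to 0.92. *Psmb7*, *Psmc3* and *Psmd6* then lost their calls (adjusted *P* = 0.0203, 0.0470 and 0.0241, limma), whereas *Psmb4*, *Psmd9*, *Psmd11*, *Psmf1* and *Psmg1* gained one.

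The α ring of the 20S core rose in 5 of its 7 subunits (71.4%, against 28.2% of all genes), with a median log2(fold change) of 0.63. *Psma4*, which encodes the α3 subunit, changed most. Its signal was 63.5 in the median wt library (39.5 to 87.9) and 114 in the median *mfn1,2* library (82.1 to 144). Only *mfn1,2* library 8 lay within the wt range, and the log2(fold change) was 0.98 ± 0.11 (adjusted *P* = 1.3e-08). *Psma5* (α5) moved from 6.86 (6.05 to 7.86) to 12.5 (8.80 to 14.6), a log2(fold change) of 0.86 ± 0.06, and *Psma2* (α2) from 4.78 (2.99 to 5.83) to 7.09 (6.01 to 7.98). In both genes the lowest *mfn1,2* library was above the highest wt library. *Psma7* and *Psma1* also rose, while *Psma3* and *Psma6* did not pass the test. *Psma6* (α1) had the smallest change of the ring, from 31.6 (27.6 to 40.8) to 33.8 (28.4 to 40.2), with fully overlapping groups and a log2(fold change) of 0.06 ± 0.06, which was -0.01 under scaling to the upper quartile.

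The β ring rose in 5 of its 7 constitutive subunits (71.4%, against 28.2% of all genes), with a median of 0.36 and the largest change of any 20S subunit. *Psmb1*, the structural β6 subunit, went from 12.7 (10.3 to 17.0) in wt to 30.5 (15.9 to 39.0) in *mfn1,2*. Apart from *mfn1,2* library 8, which lay within the wt range, the groups were separate, and the log2(fold change) was 1.17 ± 0.10 (adjusted *P* = 1.9e-11). The structural subunits *Psmb3* and *Psmb2* rose as well, although *Psmb2* missed the threshold under scaling to the upper quartile (0.29, adjusted *P* = 0.0131), and *Psmb4* did not pass the test (0.20 ± 0.09, adjusted *P* = 0.0467).

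The 3 catalytic β subunits differed among themselves. *Psmb5* carries the chymotrypsin-like site (β5), and its signal was 5.30 (3.61 to 6.66) in wt and 8.37 (5.69 to 11.4) in *mfn1,2*. The groups overlapped at their edges, at a log2(fold change) of 0.59 ± 0.10. *Psmb7*, which carries the trypsin-like site (β2), went from 30.1 (25.5 to 38.7) to 36.4 (29.4 to 44.4). It overlapped over much of its range and rose by 0.24 ± 0.07. *Psmb6*, which carries the site that cuts after acidic residues (β1), was at 46.5 (37.9 to 55.9) and 47.6 (43.1 to 54.6) with a log2(fold change) of 0.06 ± 0.07. Its *mfn1,2* libraries lay wholly inside the wt range and did not pass the test (adjusted *P* = 0.452), and its sign turned under scaling to the upper quartile (-0.01).

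The immune counterparts of 2 of these catalytic subunits could be followed, and they moved in opposite directions. *Psmb8* replaces *Psmb5* in the immunoproteasome. Its signal was 0.87 in the median wt library (0.47 to 1.93) and 0.46 in the median *mfn1,2* library (0.17 to 0.93). The groups overlapped in the range from the lowest wt to the highest *mfn1,2* library, and *Psmb8* fell, at a log2(fold change) of -1.0 ± 0.23 (adjusted *P* = 3.1e-04). It was lower under every scaling, but its change did not pass the test as deposited (-0.46), at equal totals (-0.11) or scaled to *Actb* (-0.33). *Psmb10*, which replaces *Psmb7*, rose from 1.95 (0.95 to 2.33) to 3.03 (1.47 to 4.86), a log2(fold change) of 0.70 ± 0.15 (adjusted *P* = 1.2e-04). Only 3 *mfn1,2* libraries lay within the wt range and the others were above it. At levels this low the pseudocount matters for the size, and with a pseudocount of 1 the changes were -0.45 and 0.51.

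**Figure D3:**
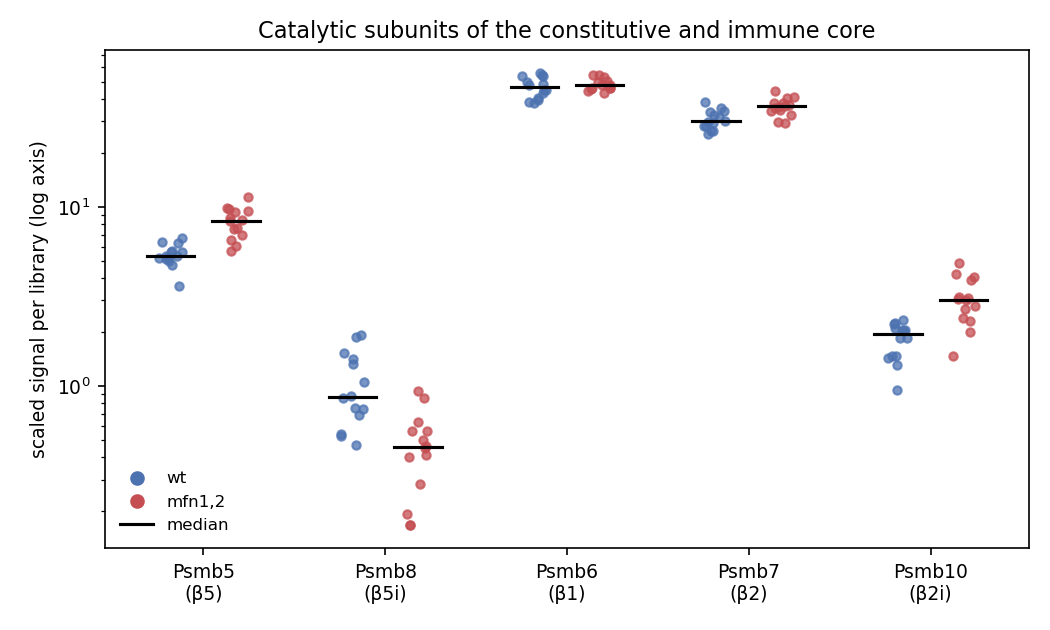
Scaled signal of the catalytic subunits in each library (log axis), with wt in blue, *mfn1,2* in red and the median as a black bar; each immune subunit stands beside its constitutive counterpart. *Psmb8* drops from a median of 0.87 to 0.46 while *Psmb5* climbs from 5.30 to 8.37, and *Psmb10* climbs from 1.95 to 3.03.

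The ratio of an immune subunit to its constitutive counterpart was taken within each library, where the scaling enters only through the pseudocount of 0.1. Because the deposited unit is not stated, the ratios serve to compare libraries and not the number of molecules. *Psmb5*, *Psmb7* and *Psmb8* also share sequence with other genes or overlap them, as listed further below. *Psmb8* was 17.7% of *Psmb5* in the median wt library (8.84 to 37.0%) and 5.73% in the median *mfn1,2* library (1.46 to 12.3%). In 12 of 14 *mfn1,2* libraries the ratio was below every wt library. The mean log2 ratio was lower by -1.59 ± 0.24 in *mfn1,2* (2-sided permutation test, 100000 resamples, *P* = 2e-05, the smallest they can give, and 4e-05 adjusted over the 2 ratios). *Psmb10* was 5.88% of *Psmb7* in wt (3.72 to 7.13%) and 8.08% in *mfn1,2* (4.05 to 14.8%). In 10 of 14 *mfn1,2* libraries this ratio was above every wt library, and the mean log2 ratio differed by 0.47 ± 0.14 (same permutation test, *P* = 0.00226). Without the 5 libraries that clustered apart the second difference was 0.41 (adjusted *P* = 0.0173) and no longer passed 0.01, whereas the first was -1.84. With a pseudocount of 1 the differences were smaller, -0.98 for *Psmb8* to *Psmb5* (adjusted *P* = 4e-05, permutation test) and 0.28 for *Psmb10* to *Psmb7* (adjusted *P* = 0.0116), so that the second again missed 0.01.

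**Figure D4:**
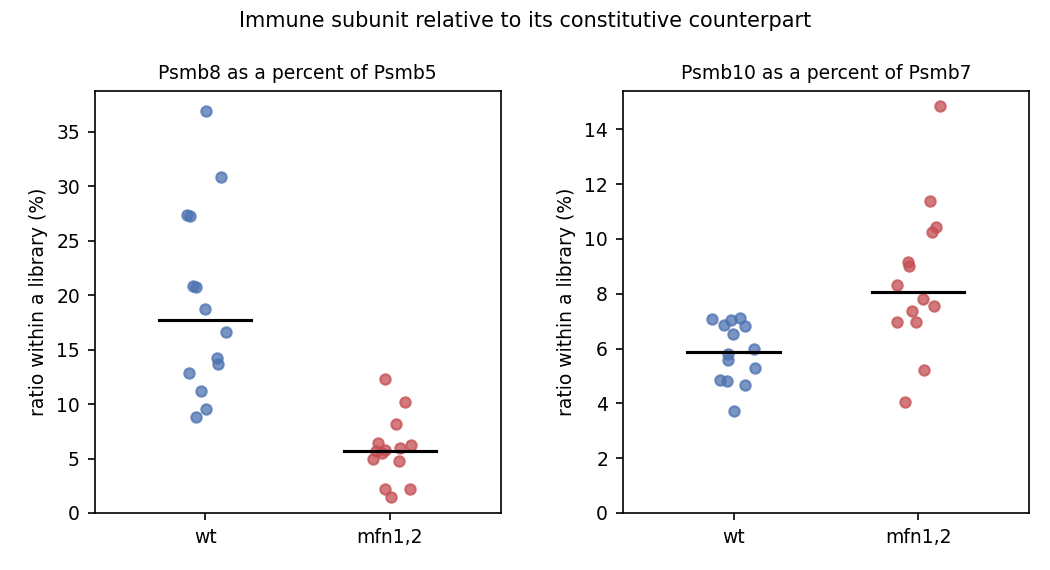
Immune subunit as a percent of its constitutive counterpart in each library (y axes from 0), for 14 wt and 14 *mfn1,2* libraries, with the median as a black bar. The *Psmb8* to *Psmb5* ratio falls from a median of 17.7% to 5.73%, and the *Psmb10* to *Psmb7* ratio goes from 5.88% to 8.08%.

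The other genes of antigen presentation and the markers of leukocytes, the cells that normally carry most immunoproteasome, had the direction of *Psmb8*. Of 7 interferon and MHC class I genes tested, 5 fell (71.4%, against 24.9% of all genes). The others did not pass the test, and the median log2(fold change) was -0.61. *B2m*, the light chain of MHC class I, went from 39.7 ± 13.2 to 19.8 ± 4.22 (SD, n = 14), with overlap (-0.97 ± 0.14). *Erap1*, which trims peptides for MHC class I, went from 3.88 ± 0.64 to 2.15 ± 0.34 without overlap (-0.82 ± 0.09), and *Tap2*, part of the peptide transporter, from 1.12 ± 0.33 to 0.64 ± 0.17 (-0.69 ± 0.14). *Irf1* and *H2-K1* did not pass the test, and *Tap1* and *Nlrc5* were below the filter. Of 11 leukocyte markers tested, 10 fell (90.9%), led by *Ighm* (-6.33 ± 0.40, at 0 in 7 *mfn1,2* libraries), *Fcer1g* (-1.47 ± 0.37) and *Cd74* (-1.14 ± 0.27). *Cd68* was the exception, at 0.82 ± 0.43 (adjusted *P* = 0.0927). The summed signal of the 14 measured leukocyte markers ranged from 27.8 to 70.6 in wt and from 10.3 to 35.3 in *mfn1,2*. *Ighm*, *Cd74* and *Lyz2* weighed most in this sum, with wt means of 16.3, 12.0 and 9.26. *Ighm* alone ranged from 1.15 to 41.7 in the wt libraries. The pan-leukocyte marker *Ptprc* was above 0 in all 28 libraries. The part of leukocyte RNA in the change of *Psmb8* was not tested.

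Promoter sequences of the catalytic pair that moved apart are shown so that the genes can be compared. They run from 250 bases before to 50 bases after the annotated start (RefSeq, GRCm38.p6). Capitals mark a match to the antioxidant response element TGACNNNGC in *Psmb5* (chr14:54617946-54618245, minus strand), and a match to the gamma-activated sequence TTCNNNGAA in *Psmb8* (chr17:34197945-34198244, plus strand). The *Psmb10* promoter (chr8:105938343-105938642, minus strand) held none of the motifs searched.
Psmb5: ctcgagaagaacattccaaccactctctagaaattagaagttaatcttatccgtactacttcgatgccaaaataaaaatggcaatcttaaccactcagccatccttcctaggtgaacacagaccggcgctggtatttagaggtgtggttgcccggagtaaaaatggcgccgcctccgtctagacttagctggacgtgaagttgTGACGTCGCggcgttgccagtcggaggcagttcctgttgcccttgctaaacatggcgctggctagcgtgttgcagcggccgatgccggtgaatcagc
Psmb8: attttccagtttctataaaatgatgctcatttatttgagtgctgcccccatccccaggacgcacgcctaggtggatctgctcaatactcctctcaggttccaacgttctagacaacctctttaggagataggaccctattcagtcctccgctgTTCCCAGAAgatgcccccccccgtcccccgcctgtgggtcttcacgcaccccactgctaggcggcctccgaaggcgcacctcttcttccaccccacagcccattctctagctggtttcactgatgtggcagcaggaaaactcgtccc
Psmb10: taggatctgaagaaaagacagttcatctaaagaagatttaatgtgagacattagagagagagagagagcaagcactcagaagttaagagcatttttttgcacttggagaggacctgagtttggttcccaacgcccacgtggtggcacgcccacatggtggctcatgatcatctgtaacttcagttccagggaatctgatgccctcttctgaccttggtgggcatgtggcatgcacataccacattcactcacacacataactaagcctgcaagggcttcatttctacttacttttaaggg

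Assembly of the core needs dedicated chaperones, and these held the largest change of all 45 genes. *Psmg4*, which with *Psmg3* helps the α ring form, went from 3.95 (2.62 to 7.68) to 10.7 (7.57 to 14.3). The lowest *mfn1,2* library was just below the highest wt library and the others were clear of wt, for a log2(fold change) of 1.36 ± 0.13 (adjusted *P* = 3.3e-10). *Psmg2* of the other chaperone pair rose by 0.75 ± 0.10. Its partner *Psmg1* (0.64 ± 0.24) and *Psmg3* (0.44 ± 0.15) did not pass the test. *Psmg3* was at 1.38 (0.71 to 2.18) and 1.82 (0.82 to 2.51) with wide overlap. *Psmg1* was lowest in wt library 2, at 0.17, and without that library its adjusted *P* was 0.00848.

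The 19S cap rose in 5 of its 6 ATPase subunits (83.3%, against 28.2% of all genes), with a median of 0.42. *Psmc1* (Rpt2) went from 42.6 (22.2 to 61.4) in wt to 62.6 (43.4 to 70.8) in *mfn1,2*. Its wt libraries were widely spread and overlapped the lower *mfn1,2* libraries, and the log2(fold change) was 0.70 ± 0.13 (adjusted *P* = 4.1e-05). *Psmc2* (Rpt1) changed by 0.69 ± 0.06, with less spread, from 20.5 (17.2 to 24.5) to 32.3 (25.5 to 39.7) and no overlap. *Psmc6*, *Psmc4* and *Psmc3* rose less. *Psmc3* passed narrowly (adjusted *P* = 0.00826) and lost its call when any 1 of 16 libraries was left out. *Psmc5* (Rpt6) was at 37.4 (24.0 to 50.7) and 43.0 (30.9 to 45.4), with the *mfn1,2* libraries inside the wt range, and did not pass the test (0.16 ± 0.08, adjusted *P* = 0.0846).

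Among the 11 non-ATPase subunits of the cap, 7 rose and 1 fell (63.6% and 9.09%, against 28.2% and 24.9% of all genes). *Psmd4* (Rpn10), a receptor for ubiquitin chains, led with 58.7 (32.1 to 90.1) in wt and 97.3 (60.4 to 131) in *mfn1,2*. The groups overlapped between 60.4 and 90.1, and the log2(fold change) was 0.87 ± 0.14 (adjusted *P* = 2.5e-06). The lid subunits *Psmd7*, *Psmd12*, *Psmd3*, *Psmd8* and *Psmd13* and the base subunit *Psmd2* rose by 0.33 to 0.65. The base subunit *Psmd1* and the lid subunit *Psmd11* did not pass the test.

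Among the 17 *Psmc* and *Psmd* subunits of the cap, the lid subunits *Psmd6* and *Psmd14* were those with a negative change. *Psmd6* (Rpn7) went from 42.3 (36.6 to 46.4) to 36.6 (31.8 to 42.9), with much of its range shared, and fell by a small but tightly measured amount (-0.17 ± 0.05, adjusted *P* = 0.00336); its change was positive as deposited (0.47), at equal totals (0.89) and scaled to *Actb* (0.66). *Psmd14* (Rpn11), the enzyme that removes ubiquitin chains from substrates, was at 26.4 (22.6 to 30.6) and 25.6 (21.7 to 28.4). Its groups overlapped almost fully and it did not pass the test (-0.09 ± 0.05), with positive changes of 0.55 as deposited, 0.96 at equal totals, 0.055 scaled to nuclear genes and 0.74 scaled to *Actb*. Of the chaperones that assemble the cap, *Psmd10* (gankyrin) rose from 1.83 (1.46 to 3.66) to 2.96 (2.15 to 3.64), a log2(fold change) of 0.57 ± 0.11 with 2 wt libraries above the lowest *mfn1,2* library. *Psmd5* rose by 0.43 ± 0.08, and *Psmd9*, at 3.60 (2.53 to 4.35) and 3.84 (2.67 to 5.58), did not pass the test (adjusted *P* = 0.0801).

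Of the 5 genes for activators that bind the core in place of the cap and for an inhibitor, 1 rose and 2 fell. The shares were 20% and 40%, against 28.2% and 24.9% of all genes. *Psme4* encodes PA200, a nuclear activator that works without ubiquitin, and its signal was 47.8 (41.0 to 67.4) in wt and 32.2 (24.8 to 43.6) in *mfn1,2*. Only 1 *mfn1,2* library reached into the wt range, and the gene fell (-0.64 ± 0.09, adjusted *P* = 2.7e-07). *Psme1* encodes the α subunit of PA28, the activator that interferon induces with the immunoproteasome. It fell from 42.8 (31.3 to 49.7) to 29.4 (22.7 to 41.1), with overlap (-0.52 ± 0.10, adjusted *P* = 3.6e-05). *Psme2*, which encodes the β subunit of the same ring, was at 12.9 (10.6 to 16.2) and 11.1 (8.06 to 14), also with overlap, and did not pass the test (-0.20 ± 0.08, adjusted *P* = 0.0332).

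The direction of these 3 activator genes was relative to the typical gene: as deposited their changes were 0.0015 for *Psme4*, 0.12 for *Psme1* and 0.44 for *Psme2*, where the median of all genes was 0.64. *Psme3*, the nuclear PA28γ, differed from its relatives and rose from 13.9 (7.61 to 20.2) to 19.4 (10.7 to 21.0), with broad overlap (0.43 ± 0.14, adjusted *P* = 0.00716); it lost its call when any 1 of 14 libraries was left out. *Psmf1*, which encodes the inhibitor PI31, did not pass the test (adjusted *P* = 0.0480).

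The *Psme1* promoter (RefSeq, GRCm38.p6, chr14:55578244-55578543, plus strand) is shown because it held a match, in capitals on the opposite strand, to the interferon-stimulated element (GAAA, any 2 bases, GAAA) just after the annotated start.
Psme1: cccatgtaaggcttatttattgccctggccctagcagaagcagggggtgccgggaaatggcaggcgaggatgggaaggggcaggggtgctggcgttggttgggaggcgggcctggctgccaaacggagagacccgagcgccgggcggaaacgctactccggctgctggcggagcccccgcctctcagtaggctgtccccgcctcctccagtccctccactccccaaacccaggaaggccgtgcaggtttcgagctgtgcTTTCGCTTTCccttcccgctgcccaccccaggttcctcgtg

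Members were then compared with each other, by scaling each library to its own 20S and 19S subunits in place of all genes, a comparison added after seeing the data. On this scale a member that kept pace with the particle, here the median of these transcripts, shows no change. Of all genes, 10.9% were higher and 50.9% lower in *mfn1,2*. The 31 subunits that set the scale centre near 0, so some stand on either side by construction. Among them, 6 were called higher and 7 lower. Of the 45 proteasome genes, 8 were higher than the particle and 11 lower. The 8 were the core subunits *Psma2*, *Psma4*, *Psma5* and *Psmb1*, the cap subunits *Psmc2* and *Psmd4* and the core chaperones *Psmg2* and *Psmg4*. The 11 were *Psma3*, *Psma6*, *Psmb6* and *Psmb7* of the core, *Psmc5*, *Psmd6* and *Psmd14* of the cap, *Psmb8*, and the activators *Psme1*, *Psme2* and *Psme4*. The extremes were *Psmg4* at 0.96 ± 0.11 and *Psmb1* at 0.77 ± 0.08 on the high side, and *Psmb8* at -1.34 ± 0.23 and *Psme4* at -1.05 ± 0.08 on the low side. Within the α ring, *Psma4* (0.57 ± 0.09) and *Psma6* (-0.35 ± 0.08) stood on either side of the particle, and so did *Psmb1* and *Psmb6* (-0.35 ± 0.08) within the β ring. *Psma2* lost its call without the 5 libraries that clustered apart (0.08, adjusted *P* = 0.291) and without any 1 of 15 single libraries, and *Psma3* lost its call without any 1 of 13. Leaving out single libraries gave 7 to 9 higher and 10 to 12 lower genes.

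Under the main scaling, the average over the 20S subunits narrowly separated the genotypes library by library. The mean log2 signal of the 14 constitutive 20S subunits ranged from 3.86 to 4.15 in wt and from 4.19 to 4.54 in *mfn1,2*, so the genotypes did not overlap. The lowest *mfn1,2* value, 4.19, belonged to library 8, which clustered apart, and the next was 4.39. The summed signal of the same 14 subunits did overlap, at 273 to 350 in wt and 336 to 448 in *mfn1,2*. Whether the averages separate under the other scalings, or for other sets of genes, was not tested. The mean over the 17 subunits of the 19S cap ranged from 4.69 to 5.23 in wt and from 4.96 to 5.51 in *mfn1,2*, with overlap. The 20S mean less the 19S mean was -0.96 ± 0.09 in wt and -0.88 ± 0.07 in *mfn1,2* (SD, n = 14), with overlap, and this difference was not tested. Single libraries stood out for some members: *Psmd11* was at 49.7 in wt library 6, the highest wt value of a range from 12.1, and without that library its adjusted *P* was 7.6e-04 in place of 0.0201.

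**Figure D5:**
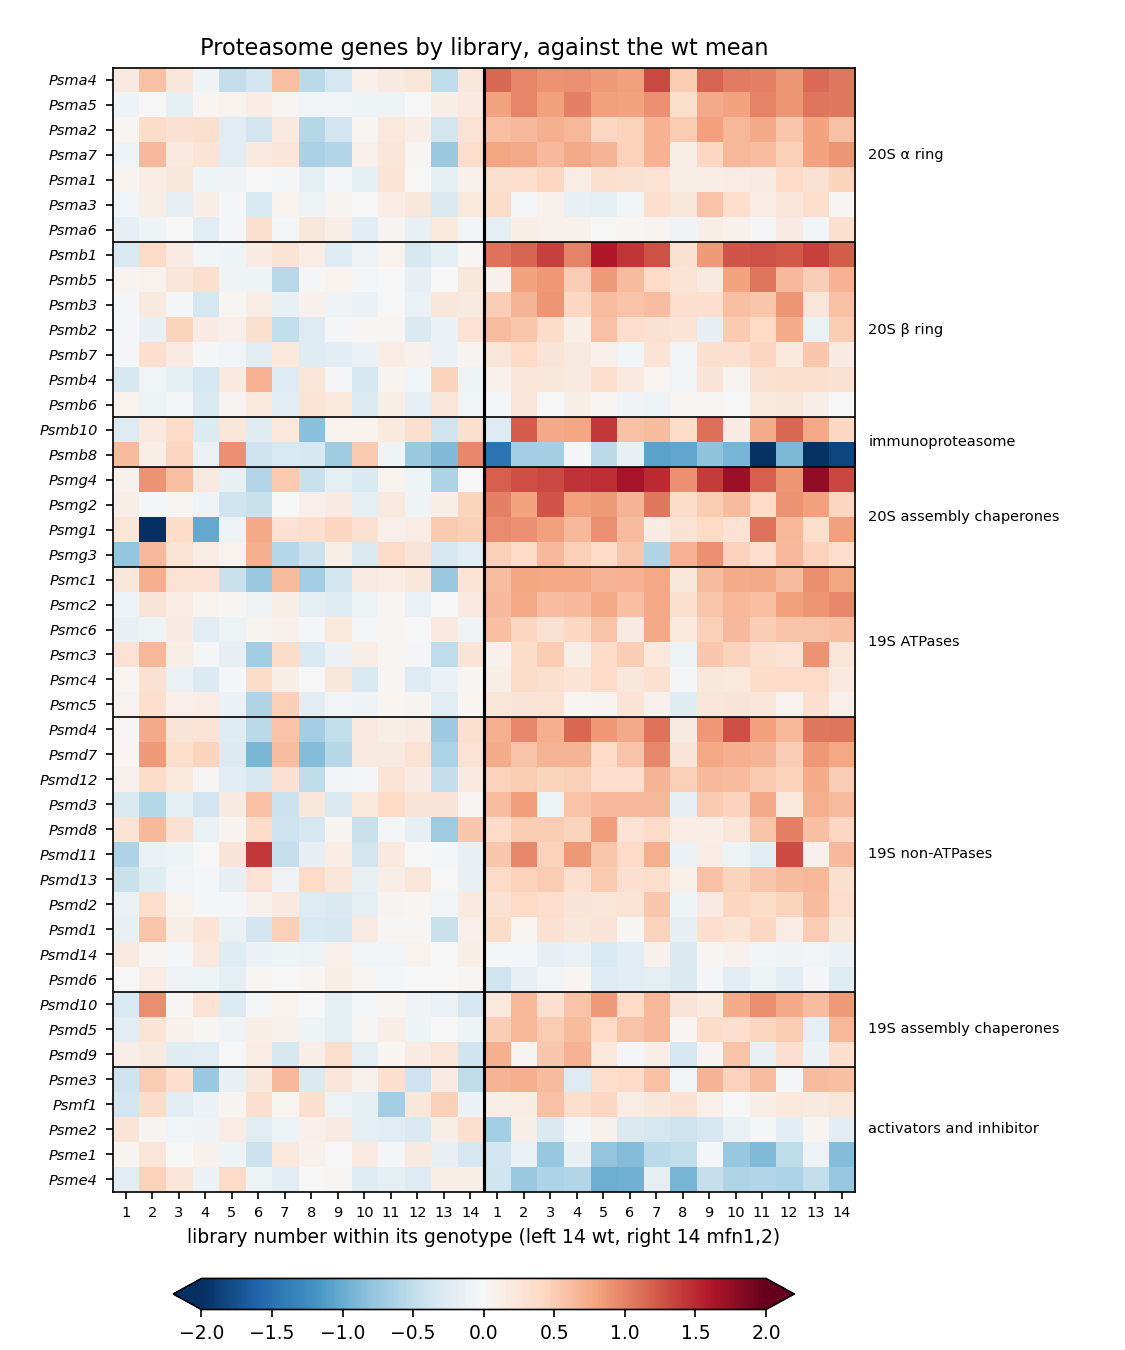
Log2 signal of each proteasome gene (rows, by functional group) in each library (columns, 14 wt then 14 *mfn1,2*), as the difference from the mean of the wt libraries; red is higher and blue lower. Most 20S and 19S rows turn red in *mfn1,2*, least so in *mfn1,2* library 8, while *Psmb8*, *Psme1* and *Psme4* turn blue.

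Of 9 genes that regulate the proteasome or feed it, 5 rose and 2 fell (55.6% and 22.2%, against 28.2% and 24.9% of all genes), with a median log2(fold change) of 0.37. *Nfe2l1*, the transcription factor that raises proteasome genes when the particle is short, went from 86.3 ± 19.7 to 135 ± 15.6 (SD, n = 14), with overlap (0.67 ± 0.10). *Nfe2l2*, its relative that answers oxidative stress, went from 10.1 ± 1.43 to 18.6 ± 3.87 (0.86 ± 0.10), and *Sel1l*, an adaptor for removing misfolded proteins from the endoplasmic reticulum, from 13.9 ± 6.86 to 24.6 ± 4.11 (0.92 ± 0.15). The genotypes overlapped in both genes. The regulators that fell, *Ddi2* (-0.38 ± 0.08) and *Ngly1* (-0.30 ± 0.08), both with overlap, encode the protease and the deglycosylase that process the *Nfe2l1* protein. The 22.2% that fell was near the 24.9% of all genes and shows nothing about these regulators as a group.

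Of 4 genes for ubiquitin and its activating enzymes, 2 rose (50%, against 28.2% of all genes), with a median log2(fold change) of 0.22. The 2 that rose encode ubiquitin, and neither activating enzyme, *Uba1* nor *Uba6*, passed the test. *Rps27a*, which encodes ubiquitin fused to a ribosomal protein, went from 22.1 ± 3.38 to 32.9 ± 4.10 without overlap (0.58 ± 0.08), and *Ubb*, a polyubiquitin gene, from 98.6 ± 11.8 to 137 ± 13.7 with overlap (0.48 ± 0.06). Of 15 factors that associate with the particle or deliver substrates to it, 5 rose and 1 fell, with a median of 0.12; the 33.3% that rose was near the 28.2% of all genes and shows nothing about these factors as a group. *Zfand2a*, a stress-induced factor that binds the cap, rose by 0.47 ± 0.08 and *Txnl1*, a thioredoxin-like protein bound to the cap, by 0.40 ± 0.07. *Sem1*, the small lid subunit, did not pass the test (0.43 ± 0.29), and its wt libraries ranged from 8.33 to 89.3.

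Markers of other cells in the muscle and of the fibres also differed, where 24.9% of all genes fell and 28.2% rose. Of 10 endothelial markers 9 fell (median -0.72, led by *Vwf* at -1.13 ± 0.15), with summed signals of 77.5 to 116 in wt and 51.3 to 68.6 in *mfn1,2* and none of the 10 at 0 in any library. Of 8 fibroblast markers 4 fell (median -0.87, led by *Fbn1* at -1.37 ± 0.33), with summed signals of 183 to 1460 and 83.3 to 745. The 10 muscle fibre markers were mixed, and 2 rose and 6 fell. Those that fell were led by *Actn3* (-4.72 ± 0.37), *Mb* (-2.70 ± 0.18) and *Myh4* (-2.31 ± 0.31). Those that rose were *Myh1* (0.62 ± 0.19) and *Des* (0.49 ± 0.12), and *Ttn* and *Tnnt3* did not pass the test. The part of any of these cells in the changes of the proteasome genes was not tested.

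A promoter was found for 38 of the 45 genes and searched for 4 motifs on both strands. The interferon-stimulated element occurred in 5 of the 38 (13.2%) and in 3.99% of all 27025 genes with a promoter; the 5 were *Psmb3*, *Psmd4*, *Psmd9*, *Psme1* and *Psmg4*, of which 3 rose and 1 fell. The antioxidant response element TGACNNNGC occurred in 6 (15.8%) against 14% of all genes, namely *Psmb5*, *Psmb6*, *Psmc6*, *Psmd9*, *Psmd12* and *Psme4*. The CCAAT box occurred in 12 (31.6%) against 41.1%, and the gamma-activated sequence TTCNNNGAA in 3 (7.89%) against 9.55%. These matches describe the letters of the windows and no binding was measured.

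Some members share reads with other genes, and their values are uncertain to that extent. Stretches of at least 300 bases with at least 97% identity to another annotated gene were found for 9 members, *Psma3*, *Psma4*, *Psma5*, *Psmb3*, *Psmb5*, *Psmc1*, *Psmd2*, *Psmd11* and *Psme2*. Exons of 7 members, *Psma4*, *Psmb7*, *Psmb8*, *Psmc3*, *Psmd1*, *Psmd9* and *Psmd13*, overlap a gene on the opposite strand, and the strand setting of the counting is not given in the sources used here. Exons of 3 members, *Psmb5*, *Psmd1* and *Psmg3*, overlap another gene on the same strand. Among the genes with the strongest changes, *Psma4*, *Psma5* and *Psmb8* were affected. So was *Psmb5*, whose longest match was 796 bases beside an exonic length of 899. *Psmb1*, *Psmc2*, *Psmg4*, *Psme4* and *Psmb10* had no such stretch or overlap.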

How the data were processed

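Total RNA from TA muscle was made into stranded libraries by the authors and sequenced as single reads. The submitters' processing notes list, with no versions, HISAT2, Trim Galore, DESeq2 and featureCounts, beside the mouse build mm9. The authors deposited 1 table of normalized signal per gene and library, which they call DESeq2-normalized. Of its values above 0, 100% were not exact whole numbers, and longer genes had smaller lowest values (log-log slope -1.07 over 259 genes at 0 in at least 8 libraries), so the exact unit is not given in the sources used here, depth is unknown and no count test was run. Precision rests on the 14 mice per genotype, 1 library each. Columns left unused numbered 0.

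Libraries were scaled to the median of ratios over 11693 genes above 0 in all 28 libraries. The test between genotypes used limma 3.58.1 (R 4.3.3, mean-variance trend) on log2(signal + 0.1), over the 10819 of 12732 genes whose mean reached 0.5. Adjusted p-values are Benjamini-Hochberg values over all genes tested. The script was tested on simulated data. Paralog ratios were compared by permutation (SciPy 1.17.1); the design named a ratio with *Psmb9*, which is not analysed here. All members were counted. Values are given for *Psmb5* to *Psmb10*, the largest and smallest change of each group, members that fell, and up to 3 genes of each other list; further genes were named after their values were seen. Members and lists were chosen with earlier results of these data known, and some genes of the lists are not reported here. Other scalings, pseudocounts, filters, thresholds, a robust variance and sets of libraries were tried. Shared sequence was searched with blastn 2.17.0+ in GENCODE transcripts of release M21.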

Additional observations from a re-analysis of the deposited data

How the results depend on the processing

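The number of proteasome genes that rose was 28, and the number that fell was 4. Scaling libraries to the same total gave 43 and 0, and *Actb* and the values as deposited gave 42 and 0. The total of nuclear genes gave 33 and 3, and the upper quartile gave 24 and 5. All genes shifted too: 28.2% rose in the main fit, 79.1% at equal totals, 65.8% scaled to *Actb* and 62.3% as deposited. That share was 34.9% scaled to nuclear genes and 24.4% at the upper quartile. Of all genes, 2696 of 10819 fell in the main fit. Only 284 of 10930 fell at equal totals, 366 of 10877 scaled to *Actb* and 538 of 10871 as deposited. Scaled to nuclear genes 1798 of 10839 fell, and at the upper quartile 3042 of 10832. At the upper quartile *Psmb2*, *Psmc3*, *Psmc4* and *Psme3* lost their calls (adjusted p 0.0124 to 0.0151, limma) and *Psme2* gained one. Under the 3 settings in which none fell, 0 of the 45 were lower at an unadjusted p under 0.05 (limma). A Bonferroni adjustment left 12 that rose, of which 6 were 20S and 4 were 19S subunits, and 1 that fell. With that adjustment 12.1% of all genes rose, and 1115 of 10819 fell. The median of the 20S subunits was 1.09 as deposited, 1.5 at equal totals, 0.60 scaled to nuclear genes and 1.28 scaled to *Actb*. That of the 19S subunits was 1.08, 1.5, 0.59 and 1.28 in the same order. These shifts are those of all genes under the same scalings. Members whose sign turned were *Psma6* (-0.013) and *Psmb6* (-0.011) at the upper quartile and 5 others. For *Psmd14* the values were 0.55 as deposited, 0.96 at equal totals, 0.055 scaled to nuclear genes and 0.74 scaled to *Actb*. As deposited, at equal totals and scaled to *Actb*, *Psmd6* gave 0.47, 0.89 and 0.66, *Psme1* 0.12, 0.54 and 0.31, *Psme2* 0.44, 0.85 and 0.63, and *Psme4* 0.0015, 0.42 and 0.20. The difference in the *Psmb10* to *Psmb7* ratio was 0.28 with a pseudocount of 1 (adjusted p = 0.0116, permutation test) and 0.41 without the libraries that clustered apart (adjusted p = 0.0173). Leaving out each library gave 26 to 31 genes that rose and 4 that fell, and the shares of all genes were not recorded for these fits. Call losses were limited to *Psmc3* (without any of wt 4, 5, 6, 8, 9, 11, 12 and 13 or *mfn1,2* 2, 3, 5, 6, 9, 10, 11 and 13, adjusted p up to 0.0166) and *Psme3* (without any of wt 1, 4, 5, 8, 12 and 14 or *mfn1,2* 1, 2, 3, 7, 9, 11, 13 and 14, adjusted p up to 0.0142). Calls were gained by *Psmb4* and *Psmd11* without wt 6, *Psmd1* without wt 2 or 7, *Psmg1* without wt 2, and *Psmg3* without wt 2, 3, 6, 11 or 12 or *mfn1,2* 7. Within the particle, *Psma2* lost its call without any of 15 libraries and *Psma3* without any of 13. No paired analysis was possible because the value columns carry a genotype and a running number from 1 to 14, whereas the labels number replicates within each age, and nothing states which column is which. Age is part of the spread between libraries, and low genes such as *Psmb8* are limited by an unknown depth.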
